A study of Mus musculus with 9 samples.

Results

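These genes had low or no measured RNA in control mouse 8-cell embryos and higher levels in every library after knockdown of the histone variant H3.3. They were chosen by their expression values: the level in FPKM, sequenced fragments of a gene scaled to its transcript length and to the size of the library, had to be under 1 in each of the 3 control libraries and at least 5 in each of the 3 H3.3-KD libraries. Of 55335 genes listed, 41665 were under 1 FPKM in each control library, and 69 of these also passed the H3.3-KD limit. Only 6 of the 69 were listed at 0 in each control library, so a value under the limit is not read as a silent gene. All 9 libraries came from 8-cell embryos of ICR mice, fertilized in vitro, injected as zygotes with 25 µM siRNA and cultured in KSOM medium. Control embryos received a nontargeting siRNA, H3.3-KD embryos siRNA against both H3.3 genes (H3f3a and H3f3b), and MFN1-KD embryos siRNA against the mitochondrial fusion gene Mfn1, with 3 libraries in each group. Each library was a pool of embryos (5 to 10 according to the labels), so differences between embryos of a pool were not measured, and knockdown leaves some of the targeted mRNA in place. In such bulk samples, fewer cells of a type and less RNA per cell cannot be told apart. The selection used the control and H3.3-KD values, so the difference between those groups is given as a description with no test. The MFN1-KD libraries played no part in it.

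Histone H3.3 is the H3 variant that is loaded onto chromatin outside DNA replication. The HIRA complex places it at active genes and their regulatory elements, and the DAXX-ATRX complex places it at telomeres and silent repeats, so that loss of H3.3 can touch both expressed and silent chromatin. In the mouse, maternal H3.3 takes the place of sperm protamines on the paternal genome after fertilization. By the 8-cell stage the embryonic genome is transcribed while lineage genes of the later blastocyst are only beginning to be used.

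The targeted mRNAs were low where the labels say. H3f3a was at 170, 117 and 161 FPKM in the H3.3-KD libraries against 1594 to 2110 in control, H3f3b at 311, 171 and 257 against 2895 to 3166, and Mfn1 at 9.54, 4.40 and 1.15 in the MFN1-KD libraries against 22.6 to 51.6 in control. Of 13 markers of the 8-cell embryo, 12 were at 1 FPKM or more in each control library, 9 in each H3.3-KD and 6 in each MFN1-KD library. Their sum was carried mostly by Dppa3 and was 11830 to 15320 FPKM in control, 7441 to 9397 FPKM after H3.3 knockdown and 16920 to 21400 FPKM after MFN1 knockdown. By limma 3 of the 13 (23.1%) were called higher in H3.3-KD and 0 lower. That share was near the 20.2% called higher over all genes tested, so nothing is read from it. Pou5f1 was at 5.1 to 8.9 FPKM in control and at 330.3, 392.2 and 63.1 FPKM after H3.3 knockdown. The 8 cumulus and granulosa markers, carried mostly by Amhr2, summed to 38.2 to 67.2 FPKM in H3.3-KD and 16.1 to 29.8 FPKM in control, with 6 of the 8 listed at 0 in each control library and 1 of the 8 in each H3.3-KD library. The 6 fibroblast markers summed to 0.46 to 0.64 FPKM in control and 0.49 to 10.3 FPKM in H3.3-KD, where Dcn was at 8.39 FPKM in replicate 3. The 6 blood cell markers summed to 86.5 to 100.7 FPKM in control and 26.3 to 58.0 FPKM in H3.3-KD, although Cd74 among them was at 2.89 to 7.61 FPKM in control and at 30.0, 6.79 and 47.3 FPKM after H3.3 knockdown. The part of these marker levels in the values that follow was not tested. MFN1-KD replicate 3 stood apart by detecting 15577 genes above 0, against 19250 and 20842 in the other MFN1-KD libraries and 21643 to 24820 in control and H3.3-KD.

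**Figure D1:**
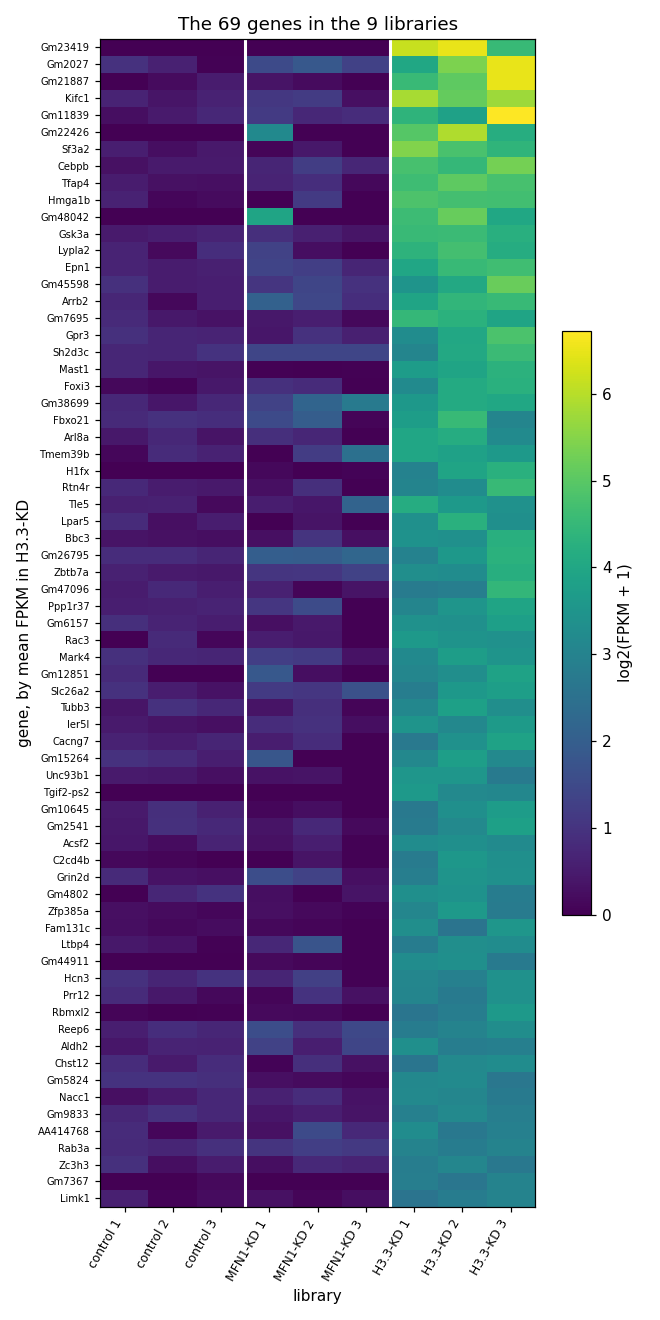
Level of each of the 69 genes (rows, ordered by mean FPKM in H3.3-KD) in each of the 9 libraries (columns), colored by log2(FPKM + 1). The H3.3-KD columns are bright by selection; in the MFN1-KD columns, which the selection did not use, every gene stays below its lowest H3.3-KD value.

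Most of the 69 were genes that make proteins. In the GENCODE M21 annotation of mm10, 49 were protein coding (71.0%), 15 were pseudogenes, 2 were long intergenic RNAs and 2 were annotated as microRNAs; Gm5824, listed as a pseudogene by RefSeq, had no GENCODE entry. Protein-coding genes made up 27.8% of all genes under 1 FPKM in each control and 77.5% of the genes tested. The median over the 69 genes of the mean level was 0.437 FPKM for control and 10.6 FPKM for H3.3-KD. In H3.3-KD, 20 genes were at 10 FPKM or more in each library and 6 at 20 FPKM or more, while 31 had a mean under 10 FPKM. The reverse selection, under 1 FPKM in each H3.3-KD library and at least 5 FPKM in each control, held 24 genes.

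Kifc1, which encodes a minus-end-directed kinesin of the mitotic spindle, was among the highest of the protein-coding genes. It was at 0.60, 0.30 and 0.57 FPKM in the control libraries, 55.9, 34.2 and 52.2 FPKM in H3.3-KD, and 1.14, 1.25 and 0.21 FPKM in MFN1-KD. Its MFN1-KD values lay on both sides of the control values. Gm21887, a gene on the X chromosome without an assigned name, reached 22.7, 32.0 and 89.0 FPKM in H3.3-KD from 0, 0.15 and 0.42 FPKM in control.

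The 4 promoters printed here, chosen after the levels were seen, belong to Kifc1, Sf3a2 and Cebpb, among the highest protein-coding genes, and to the cell-death gene Bbc3. Each is the 150 bases before the RefSeq start on GRCm38.p6 (the assembly also called mm10), written 5′ to 3′ on the gene's strand with every CG dinucleotide in capitals. They lie at chr17:33890634-33890783 (minus strand, Kifc1), chr10:80798585-80798734 (plus, Sf3a2), chr2:167688765-167688914 (plus, Cebpb) and chr7:16309433-16309582 (plus, Bbc3).
Kifc1: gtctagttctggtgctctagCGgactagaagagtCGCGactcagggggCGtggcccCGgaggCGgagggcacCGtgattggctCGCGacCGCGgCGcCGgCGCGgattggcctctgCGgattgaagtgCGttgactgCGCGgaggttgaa
Sf3a2: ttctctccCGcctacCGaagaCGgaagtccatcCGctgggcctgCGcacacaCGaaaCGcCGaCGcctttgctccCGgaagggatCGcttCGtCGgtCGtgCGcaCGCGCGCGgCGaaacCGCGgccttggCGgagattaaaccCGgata
Cebpb: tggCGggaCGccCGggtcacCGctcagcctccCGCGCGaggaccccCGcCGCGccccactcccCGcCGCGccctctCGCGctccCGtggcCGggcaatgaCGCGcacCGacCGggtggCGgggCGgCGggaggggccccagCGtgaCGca
Bbc3: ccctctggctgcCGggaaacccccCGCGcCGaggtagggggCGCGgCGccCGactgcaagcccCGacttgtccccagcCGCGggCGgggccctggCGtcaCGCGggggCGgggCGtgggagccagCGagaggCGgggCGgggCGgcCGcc
They hold 19, 24, 26 and 22 CG dinucleotides in that order, where the median over 27025 RefSeq promoters of the same length was 4. Their GC content was 66.7, 65.3, 82.0 and 82.7% against a median of 54.0%. A promoter sequence was matched for 38 of the 69 genes only, so the whole set could not be compared. From 250 bases before the start to 50 after, the 34 protein-coding genes with one had a median of 26 CG dinucleotides. Other protein-coding genes had 23 where called higher in H3.3-KD, 21 where tested and 5 where under 1 FPKM in each control. High counts were thus also common among other genes tested.

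The largest role group held 13 genes of transcription, chromatin and RNA processing, with a median H3.3-KD mean of 12.6 FPKM. Sf3a2, a subunit of the splicing factor SF3A in the U2 snRNP, was at 0.48, 0.18 and 0.38 FPKM in the control libraries and 43.1, 26.6 and 19.9 FPKM in the H3.3-KD libraries. Cebpb, a bZIP transcription factor of stress and differentiation responses, was at 0.23, 0.40 and 0.41 FPKM in the control libraries, 26.1, 21.5 and 39.2 FPKM in H3.3-KD, and 0.62, 1.34 and 0.66 FPKM in MFN1-KD. Each Cebpb value in MFN1-KD was above each control value and far below each H3.3-KD value. Tfap4, a basic helix-loop-helix factor, was at 23.9, 32.6 and 26.4 FPKM in H3.3-KD from 0.21 to 0.43 FPKM in control. Foxi3, a forkhead factor of ectodermal development, was at 8.22, 16.2 and 18.3 FPKM in H3.3-KD from 0.04 to 0.34 FPKM in control.

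H1fx, which encodes a linker histone H1 variant, was listed at 0 in each control library and at 6.92, 14.2 and 18.2 FPKM in H3.3-KD. In MFN1-KD it was at 0.11, 0 and 0.04 FPKM. Tle5 (Aes in GENCODE M21), a Groucho-family corepressor, was at 16.9, 11.2 and 9.63 FPKM in H3.3-KD. Its MFN1-KD values of 0.46, 0.32 and 3.39 FPKM rested on replicate 3 for their mean. The other members of this group were the zinc finger genes Zbtb7a (mean 11.8 FPKM in H3.3-KD) and Zfp385a (8.27 FPKM), the chromatin gene Hmga1b, and Zc3h3, Rbmxl2, Prr12 and Nacc1, whose H3.3-KD means were 6.38 to 7.57 FPKM. In MFN1-KD, 9 of the 13 were under 1 FPKM in every library.

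Kinases, receptors and other signalling genes made up a group of the same size, 13 genes with a median H3.3-KD mean of 12.3 FPKM. Gsk3a, one of the paralogous glycogen synthase kinases, was at 0.39, 0.49 and 0.60 FPKM in the control libraries, 22.4, 22.9 and 18.0 FPKM in H3.3-KD, and 0.88, 0.52 and 0.30 FPKM in MFN1-KD. Its MFN1-KD and control values overlapped. Arrb2, the receptor adaptor beta-arrestin 2, was at 0.64, 0.10 and 0.48 FPKM in the control libraries, 14.3, 20.5 and 22 FPKM in H3.3-KD, and 3.24, 1.71 and 0.83 FPKM in MFN1-KD. Gpr3, the constitutively active receptor known for holding oocytes in meiotic arrest, was at 8.67, 15.3 and 27.4 FPKM in H3.3-KD from 0.60 to 0.90 FPKM in control. Mast1, a microtubule-associated kinase, had H3.3-KD values of 12.2, 14.1 and 19.03 FPKM. It was at 0.02, 0 and 0.02 FPKM in MFN1-KD, below its control values of 0.28 to 0.65 FPKM.

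Bbc3, which encodes the p53-inducible death protein PUMA, was at 0.28, 0.23 and 0.19 FPKM in the control libraries, 9.73, 9.36 and 17.8 FPKM in H3.3-KD, and 0.20, 1.03 and 0.22 FPKM in MFN1-KD. The adaptor Sh2d3c had a mean of 15.3 ± 7.88 FPKM (SD, n = 3) in H3.3-KD, the Nogo receptor Rtn4r 12.7 ± 8.28 FPKM and the lysophosphatidic acid receptor Lpar5 12.3 ± 5.13 FPKM. The kinases Mark4 and Limk1, Rac3, Ppp1r37 and Unc93b1, a chaperone of Toll-like receptors, had means of 6.06 to 10.7 FPKM.

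The cytoskeleton and trafficking group held 6 genes. Beside Kifc1 these were Epn1, an endocytic clathrin adaptor (20.5 ± 5.04 FPKM in H3.3-KD, SD, n = 3), the lysosomal GTPase Arl8a (13.4 ± 4.58 FPKM), Tubb3, a beta-tubulin used as a neuron marker (9.95 ± 2.88 FPKM), Reep6 of the endoplasmic reticulum (7.30 ± 1.42 FPKM) and Rab3a, a GTPase of regulated secretion (6.71 ± 0.578 FPKM). Tubb3 was not accompanied by the other 3 neuron markers, which summed to 0.64 to 1.59 FPKM in H3.3-KD and 0.59 to 1.06 FPKM in control. Channels and transporters were Cacng7, an accessory subunit of glutamate receptors, Grin2d, an NMDA receptor subunit, Hcn3, a pacemaker-type channel, and the sulfate transporter Slc26a2, with H3.3-KD means of 7.87 to 9.98 FPKM.

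Enzymes of metabolism and protein turnover numbered 5. Lypla2, a thioesterase that removes palmitate from proteins, was at 0.60, 0.12 and 0.84 FPKM in the control libraries, 19.2, 25.4 and 17.0 FPKM in H3.3-KD, and 1.49, 0.18 and 0 FPKM in MFN1-KD. The F-box gene Fbxo21 averaged 13.9 ± 7.44 FPKM (SD, n = 3) in H3.3-KD, and Acsf2, Aldh2 and Chst12 averaged 7.25 to 8.71 FPKM. The remaining named genes, Tmem39b, Ier5l, C2cd4b, Fam131c and Ltbp4, averaged 7.92 to 13.2 FPKM, and Gm10645 and Gm9833 averaged 9.01 and 6.94 FPKM.

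The genes that GENCODE does not list as protein coding had H3.3-KD means of 6.19 to 60.7 FPKM; RefSeq lists 3 of them (Gm38699, Gm4802 and AA414768) as protein coding. Gm38699, an unprocessed pseudogene in GENCODE, was at 0.67, 0.33 and 0.67 FPKM for control, 10.9, 16.4 and 15.2 FPKM after H3.3 knockdown, and 1.53, 3.53 and 5.72 FPKM after MFN1 knockdown. Its control and H3.3-KD values were kept apart by the selection, and its MFN1-KD values lay between them. Gm45598 averaged 20.4 ± 13.3 FPKM (SD, n = 3) in H3.3-KD and Gm7695, closest to the ribosomal protein gene Rpl10a, 18.0 ± 3.57 FPKM. Gm12851, Gm15264, Gm2541, Gm4802, AA414768, Gm44911 and Gm5824 averaged 6.85 to 10.02 FPKM. Of the 16 pseudogenes, Gm5824 included, 8 were under 1 FPKM in every MFN1-KD library.

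**Figure D2:**
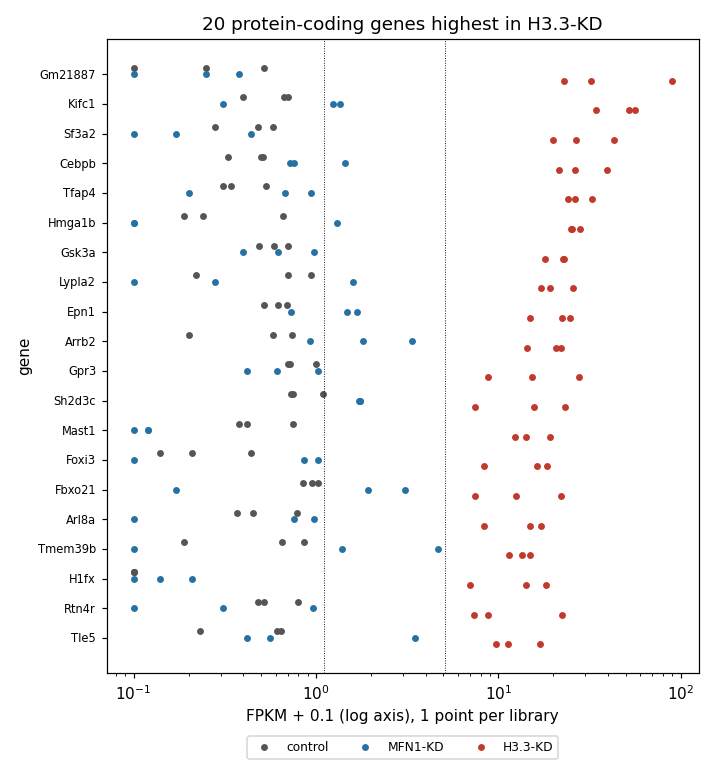
FPKM + 0.1 on a log axis for the 20 protein-coding genes with the highest H3.3-KD means, 1 point per library; dotted lines mark the 1 and 5 FPKM limits of the selection. For each gene the 3 MFN1-KD points lie left of the 3 H3.3-KD points, and for Mast1 they also lie left of the control points.

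The H3.3-KD libraries, which by selection all held these transcripts, differed in their amount. By library the median over the 69 genes was 8.68, 10.7 and 12.3 FPKM, and 11, 24 and 34 of the genes were highest in replicates 1, 2 and 3. The highest value was a median of 1.68 times the lowest, and 10 genes exceeded a ratio of 3. Gm11839 spread widest, at 19.8, 13.5 and 104.7 FPKM, followed by the pseudogene Gm2027 at 15.1, 40.9 and 90.2 FPKM. Hmga1b was among the most even, at 27.8, 25.3 and 25 FPKM.

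Values close to the limits show how the set was bounded. Fam131c (lowest H3.3-KD library 5.00 FPKM), Limk1 (5.04) and Chst12 (5.12) lay just inside the upper limit, and Gm12397 (4.97), Nrg2 (4.93) and Rai1 (4.90) just outside. At the control limit, Sh2d3c and Gm5824 (highest control library 0.99 FPKM each) and Hcn3 (0.98) were just inside, and Gm12715, Gm11841 (1.01 each) and Dusp5 (1.03) just outside.

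In a fit with limma across all 13011 genes whose mean over the 9 libraries reached 1 FPKM, the difference H3.3-KD minus control in log2(FPKM + 1) had a median of 3.05 over the 69 genes and ran from 2.03 to 5.73, beside a median of 0.26 over all genes tested. The selection used these same libraries, so nothing is read from these differences. Across all genes the median shift changed to -0.01 with median-ratio scaling and to -0.17 with upper-quartile scaling, and the median over the 69 genes to 2.81 and 2.68.

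The question put to the MFN1-KD libraries was whether these genes also reached higher measured levels after Mfn1 knockdown. In MFN1-KD the median over the 69 genes was 0.45, 0.70 and 0.10 FPKM in replicates 1, 2 and 3, where it was 0.48, 0.39 and 0.42 FPKM in the control libraries. Taking each gene's mean, the MFN1-KD median was 0.513 FPKM. All 69 genes had each MFN1-KD value below each H3.3-KD value, a pattern that 33.1% of all genes tested showed; the H3.3-KD values were those the selection had set high.

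In MFN1-KD 38 of the 69 genes (55.1%) were under 1 FPKM in every library, against 94.6% of the other genes under 1 FPKM in each control, and 3 (Gm23419, Gm7367 and Tgif2-ps2) were listed at 0 in each. At 1 FPKM or more were 23, 22 and 11 genes in replicates 1, 2 and 3 (33.3, 31.9 and 15.9%), where the other genes under 1 FPKM in each control gave 1.96, 2.94 and 1.89%. Those of the other genes with a control value above 0 gave 5.11, 8.21 and 5.37%. Neither group of other genes was matched to the 69 in control level, so nothing is read from these shares. Only Gm48042 (14.3 FPKM in replicate 1), Gm22426 (8.21 FPKM in replicate 1) and Gm38699 (5.72 FPKM in replicate 3) had any MFN1-KD value of 5 FPKM or more. Gm48042 and Gm22426 were listed at 0 in the other MFN1-KD libraries.

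The genes at 1 FPKM or more in all MFN1-KD libraries numbered 7 of 69 (10.1%), against 79 of the other 41596 genes under 1 FPKM in each control (0.190%), or 0.597% of the 12899 with a control value above 0. Without MFN1-KD replicate 3 the count was 15 of 69 (21.7%), against 0.620% of the other genes. Here too the other genes were not matched in control level, so nothing is read from these shares. The 7 genes were Gm26795, Gm38699, Gm2027, Sh2d3c, Slc26a2, Zbtb7a and Rab3a. Gm26795, a long intergenic RNA, was at 0.82, 0.81 and 0.62 FPKM in control and 3.01, 2.96 and 3.67 FPKM in MFN1-KD, with 6.85, 11.1 and 18.8 FPKM in H3.3-KD. Sh2d3c was at 0.65, 0.63 and 0.99 FPKM in control and at 1.65, 1.63 and 1.64 FPKM in MFN1-KD. For both genes MFN1-KD lay between control and H3.3-KD without overlap. The selection kept control and H3.3-KD apart, and these genes were picked for MFN1-KD values of 1 FPKM or more. Nothing is therefore read from that order.

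No gene of the 69 was called different between MFN1-KD and control by limma (adjusted p under 0.05 and more than 2-fold), where 1.09% of all genes tested were called higher and 2.05% lower. These genes entered the test through their H3.3-KD values, which the selection had set high: with the filter applied to the control and MFN1-KD libraries alone, 11 of the 69 could be tested. The control libraries are also those on which the genes were chosen for low values, so their share of calls is not read against that of all genes. At an unadjusted p under 0.05 there were 4 of 69. Of these, Gm38699 was higher in MFN1-KD by 1.46 on the log2(FPKM + 1) scale (SE 0.395, limma adjusted p = 0.0708), Gm26795 by 1.27 (SE 0.370, adjusted p = 0.0841) and Arrb2 by 0.99 (SE 0.385, adjusted p = 0.161), each in 3 of 3 libraries. Gm5824 was lower, at -0.76 (SE 0.302, limma adjusted p = 0.168), in 3 of 3 libraries. Over the alternative settings the adjusted p was 0.045 to 0.231 for Gm38699, 0.055 to 0.257 for Gm26795, 0.0816 to 0.413 for Arrb2 and 0.0786 to 0.377 for Gm5824. The value of 0.045 was reached without MFN1-KD replicate 1.

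Counted by overlap alone, 12 genes (17.4%) had every MFN1-KD library above every control library, where 11.4% of all genes tested did, and 5 genes (7.25%) had every MFN1-KD library below, where 16.8% did; for the same reasons nothing is read from these shares. The 12 were Gm38699, Gm26795, Arrb2, Reep6, Zbtb7a, Slc26a2, Gm2027, Epn1, Sh2d3c, Cebpb, Gm45598 and Rab3a, and the 5 were Gm5824, Gm10645, Mast1, Gm6157 and Gm9833. The median difference MFN1-KD minus control was 0.06 on the log2(FPKM + 1) scale over the 69 genes and -0.08 over all genes tested.

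GC content, which the selection did not use, was high in the transcripts of the protein-coding genes. The median GC content of the longest transcript was 58.9% for the 49 genes (lowest 44.7%, highest 71.3%), beside 48.4% for the other 11536 protein-coding genes under 1 FPKM in each control and 53.7% for the other 2241 called higher in H3.3-KD. When all protein-coding genes were placed in 10 equal classes of GC content, 32 of the 49 fell in the highest class (57.6 to 76.5% GC) and 47 in the highest 3. None fell in the lowest 3, and the 2 genes in the lower 5 classes were Slc26a2 and Gm9833. The highest class held 1326 genes under 1 FPKM in each control, of which 2.41% were selected. The most GC-rich transcripts of the set included H1fx (71.3%), Gm21887 (69.7%), C2cd4b (68.9%) and Cebpb (67.2%).

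The same gradient ran through all protein-coding genes tested. The share called higher in H3.3-KD by limma rose from 3.92% in the lowest GC class to 51.7% in the highest, and the median difference in log2(FPKM + 1) from -0.27 to 1.27. In MFN1-KD the median difference went the other way, from 0.23 to -0.18. With the trend of GC content and transcript length removed from each library, 1939 of 12817 genes tested were called higher in H3.3-KD. Without that step 2627 of 13011 were. Over 68 of the selected genes the median difference from control was then 2.5 for H3.3-KD and 0.3 for MFN1-KD. Whether GC content caused any of these differences was not tested. The 49 transcripts had a median length of 2247 bases, beside 2697 for the other genes under 1 FPKM in each control.

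**Figure D3:**
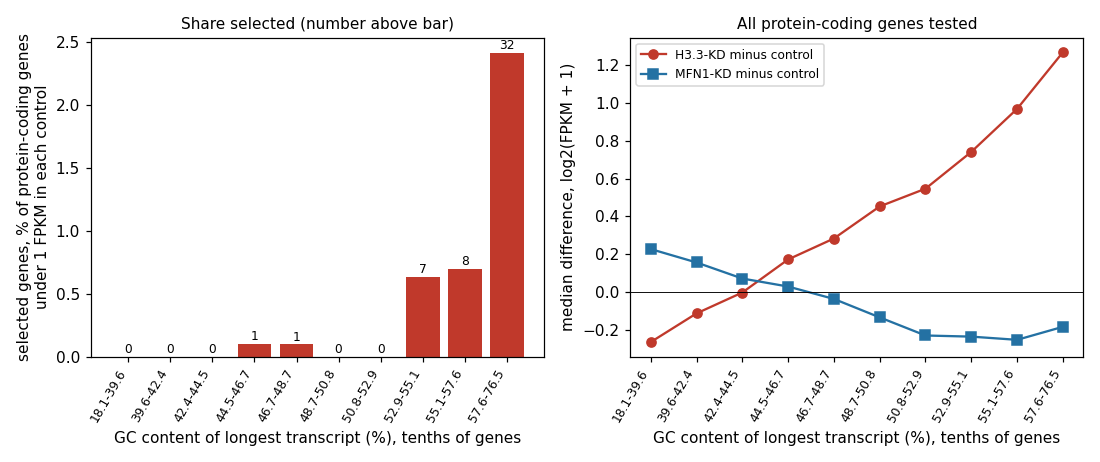
Left, selected genes as a percentage of the protein-coding genes under 1 FPKM in each control, in 10 classes of transcript GC content, with the number selected above each bar; right, the median difference in log2(FPKM + 1) from control over all protein-coding genes tested in each class. The highest class holds 32 of the 49 selected genes, and the H3.3-KD line rises across the classes to 1.27 while the MFN1-KD line falls to negative values.

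Several of the selected genes resemble other genes closely in sequence, so that reads could be assigned to either. In a search of each transcript against all GENCODE M21 transcripts, 15 of 68 had another gene at 95% identity or more over at least 80% of their length: 4 of the protein-coding genes, 9 of the pseudogenes and both genes annotated as microRNAs. The values of these 15 are uncertain for that reason, and how the authors' program shared such reads was not given in the sources used here. The 3 short transcripts below are printed because each is nearly a piece of another gene's exon; they are the annotated strand in the mm10 assembly, at chr11:120346736-120346819 (Gm23419, minus), chr1:105574687-105574782 (Gm22426, plus) and chr12:22906038-22906163 (Gm48042, minus).
Gm23419: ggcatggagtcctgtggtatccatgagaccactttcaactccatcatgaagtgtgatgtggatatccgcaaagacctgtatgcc
Gm22426: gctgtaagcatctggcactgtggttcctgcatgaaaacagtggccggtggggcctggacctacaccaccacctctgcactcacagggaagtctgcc
Gm48042: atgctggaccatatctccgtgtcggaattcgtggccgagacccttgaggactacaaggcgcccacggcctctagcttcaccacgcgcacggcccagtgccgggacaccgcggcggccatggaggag
Gm23419, 84 bases long and annotated as a microRNA, matched the cytoplasmic actin gene Actg1 at 100% identity, and 83 of its bases lie within an Actg1 exon on the same strand. It was listed at 0 in all control and MFN1-KD libraries and at 70.2, 89.6 and 22.3 FPKM in H3.3-KD. Actg1 itself averaged 114 FPKM in control, 200 FPKM in MFN1-KD and 465 FPKM in H3.3-KD, and was higher in H3.3-KD by 1.97 on the log2(FPKM + 1) scale (SE 0.36, limma adjusted p = 0.00297). Gm22426 matched the ribosomal protein gene Rpl37a at 96.6% and lies within the pseudogene Gm20302. Gm48042 had near copies in 13 other genes.

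For several of the longer pseudogenes, the closest gene was higher in H3.3-KD as well. These closest genes, like Actg1, were reached through genes selected for high values in the same H3.3-KD libraries. Reads could also be assigned to either gene, and 20.2% of all genes tested were called higher in H3.3-KD. Nothing is therefore read from their p-values. The retrocopy Gm6157 of the vitamin transporter gene Slc5a6 had a mean of 10.6 FPKM in H3.3-KD, and Slc5a6 had 951 FPKM there and 214 in control (limma adjusted p = 2.8e-04). Tgif2-ps2 was listed at 0 in all control and MFN1-KD libraries and at 11.4, 7.92 and 7.70 FPKM in H3.3-KD. Its source, the homeobox gene Tgif2 (99.3% identity), averaged 2.65 FPKM in control, 0.75 FPKM in MFN1-KD and 21.3 FPKM in H3.3-KD (limma adjusted p = 0.00174). Gm7367 and its source Ubald2 averaged 6.19 and 95.4 FPKM in H3.3-KD, with Ubald2 at 14.9 FPKM in control and 42.5 FPKM in MFN1-KD (H3.3-KD against control, limma adjusted p = 4.9e-04). Some sources were not called: Dnajb6, the source of Gm2541, averaged 739 FPKM in control and 921 in H3.3-KD (limma adjusted p = 0.255), and Cplane1, the source of Gm44911, 3.79 and 4.72 FPKM (adjusted p = 0.644).

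The 4 protein-coding genes with near copies were Kifc1 (Kifc5b, 95.9% identity), Hmga1b (Hmga1, 99.8%), Gm21887 (Gm47283, 100%) and Zc3h3 (Gm7353, 99.9%). Kifc5b averaged 2.42 FPKM in control, 1.11 FPKM in MFN1-KD and 26.6 FPKM in H3.3-KD, and Hmga1 1.79, 4.42 and 22.5 FPKM in that order. Gm47283 averaged 164, 163 and 754 FPKM, far above Gm21887 in each group. The remaining protein-coding genes had no such copy. Over the 54 genes of the set without one, Gm5824 included as not searched, the MFN1-KD median was 0.558 FPKM.

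**Figure D4:**
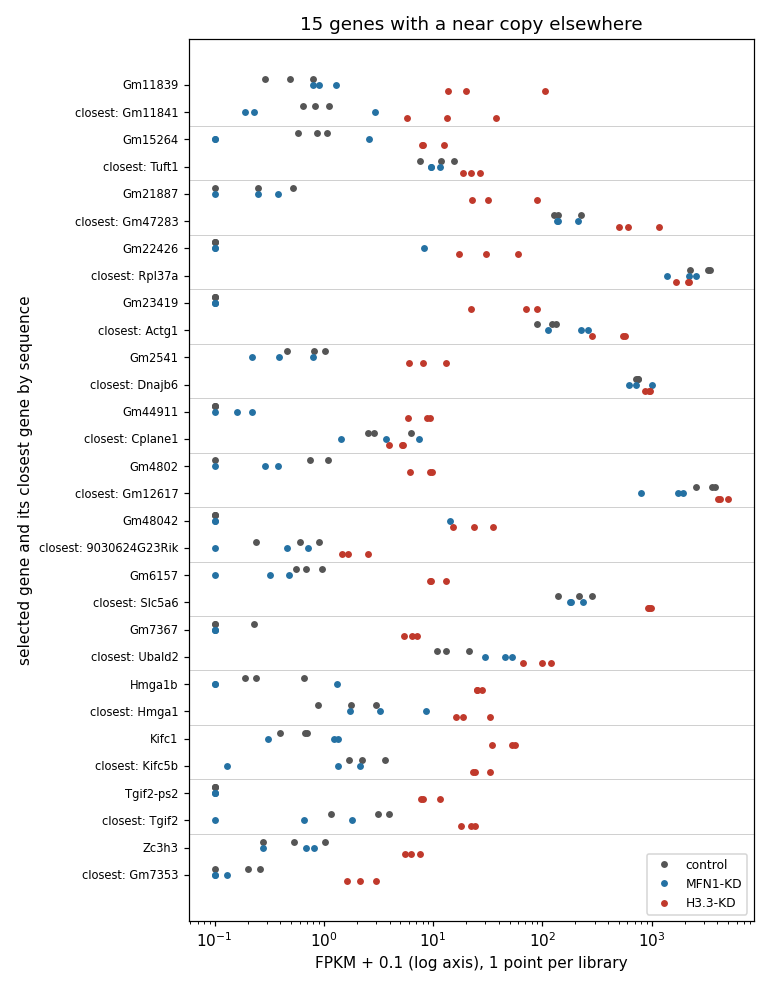
FPKM + 0.1 on a log axis, 1 point per library, for the 15 selected genes with a near copy and, under each, its closest gene by sequence. Actg1, Slc5a6, Gm47283, Ubald2, Tgif2, Hmga1 and Kifc5b have all H3.3-KD points to the right of their control points, for Cplane1 the points overlap, and for Rpl37a they lie to the left.

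Overlap on the genome touched 19 genes, whose exons shared bases with another annotated gene. In 3 cases over 50% of the exonic length was shared: Gm10645 shared 75.1% with Tbc1d9 on the opposite strand, Gm23419 98.8% with Actg1 and Gm22426 100% with Gm20302. Cebpb shared 20.7% with Tmem189 and Mast1 25% with Dnase2a, both on the opposite strand. Gm2027 and the intergenic RNA Gm47096 were both selected and overlap by 614 bases on opposite strands, so reads from those bases, 37.7% of the exonic length of Gm2027 and 29.4% of that of Gm47096, cannot be told apart without strand. Gm47096 was at 5.97, 6.33 and 20.9 FPKM in H3.3-KD and Gm2027 was also highest in replicate 3. Elsewhere the genes were mostly apart: Rac3 and Hmga1b on chromosome 11 lie 38825 bases from each other and Mark4 and Ppp1r37 on chromosome 7 lie 71979 bases apart. Chromosome 7 held 12 of the 69 genes, among them 10 of the 49 protein-coding ones (20.4%, where 9.25% of all protein-coding genes lie there).

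Of 30 gene lists, 9 contained any of the 69 genes and 12 genes were in at least 1 list. The ion channel list had 3 (Cacng7, Grin2d and Hcn3), and in it 11 of 39 genes tested were called higher and 1 lower in H3.3-KD by limma. The receptor list had Gpr3 and Lpar5, with 10 of 31 tested called higher and 2 lower, and the zinc finger list Zbtb7a and Zfp385a, with 52 of 297 higher and 18 lower. Foxi3 was the only selected gene among the developmental transcription factors, of which 26 of 67 tested were called higher and 0 lower. Cebpb came from the integrated stress response list (10 of 24 tested higher, 0 lower), Bbc3 from the p53 target list (13 of 28 higher, 1 lower), Slc26a2 from the solute carriers (58 of 175 higher, 4 lower) and Tubb3 from the cytoskeleton list (17 of 77 higher, 4 lower) and the neuron markers. Over all genes tested, 20.2% were called higher in H3.3-KD. In MFN1-KD the most genes called higher were 5 of 297 in the zinc finger list and 3 of 175 in the solute carriers. Each of these 2 lists had 1 gene called lower. Over all genes tested 1.09% were called higher and 2.05% lower in MFN1-KD, so nothing is read from these counts.

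The other lists contained none of the 69 genes. Among them were the 2-cell-like genes (8 of 37 tested called higher in H3.3-KD, 0 lower), germline genes (1 of 36, 0 lower) and imprinted genes (5 of 29, 2 lower). Others were trophectoderm and placental genes (9 of 24, 0 lower), immediate early genes (15 of 27, 0 lower) and heat shock genes (8 of 17, 2 lower). Lower calls outnumbered higher ones among replication-dependent histones (2 of 34 higher, 5 lower), small RNA genes (7 of 206, 26 lower) and ribosomal protein genes with their pseudogenes (14 of 229, 16 lower). The olfactory and vomeronasal receptors, 1777 of which were under 1 FPKM in each control, had no gene in the set, and neither had the 253 keratin and junction genes under that limit. Of all genes under that limit 0.166% were selected, so lists of these sizes would hold few or none at that share.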

How the data were processed

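RNA was measured in 9 pools of mouse 8-cell embryos (3 control, 3 H3.3-KD, 3 MFN1-KD), grouped by the labels. Libraries were Smart-Seq2, made from poly(A) RNA and sequenced as read pairs; per the methods and the submitters' processing notes, the authors trimmed with cutadapt 1.16 and used STAR for alignment to mm10. The authors deposited gene levels in FPKM, written to 2 decimals; the program, annotation and use of strand were not given in the sources used here. FPKM cannot be turned back into counts here, so sequencing depth is unknown and no counting interval is given. The study calls the libraries of a group biological replicates; p-values measure the spread between these pools.

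Genes were selected by FPKM as described. Across 13011 genes whose mean reached 1 FPKM, log2(FPKM + 1) of all 9 libraries was fitted with limma 3.58.1 (trend, robust), with p-values adjusted by Benjamini-Hochberg; a gene was called when its adjusted p was below 0.05 and its change exceeded 2-fold. Fold changes on this scale understate those of low genes. In simulated data 119 of 200 changed genes (59.5%) were recovered for MFN1-KD against control, with 4 false calls. The changed genes were drawn only from genes higher in control than any of the selected ones, so recovery of genes that low was not measured. The rate therefore says nothing about the absence of MFN1-KD calls among the selected genes. Near copies were found with blastn 2.17.0. Gene types, coordinates and GC content are from GENCODE M21; promoters are from RefSeq. The members and the gene lists were chosen with earlier results of these data known, and role groups and the printed promoters were chosen after the values were seen. Genes named are the 20 highest protein-coding genes, the highest noncoding ones, the 10 with the highest lowest MFN1-KD value, those nearest the limits, those in gene lists and the 3 with the widest H3.3-KD spread, plus genes needed to account for every member.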

Additional observations from a re-analysis of the deposited data

How the results depend on the processing

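The number of selected genes depends on the limits. Of 69 genes, 7 remained with control under 0.5 and H3.3-KD at least 10 FPKM, and 6 with control listed at 0; control under 2 FPKM gave 190. Median-ratio scaling gave 49 genes (48 of the 69) and upper-quartile scaling 43 (all from the 69). Leaving out 1 library gave 80 to 131 genes, with 110 without control replicate 1 and 131 without H3.3-KD replicate 1. All 69 stayed in each case, because a rule on every library can only keep or add genes when 1 library is dropped. Among transcripts of 200 bases or longer 65 remained, with Gm5824 left out because its length was unknown, and 54 had no near copy. The count of selected genes called in MFN1-KD was 0 under every alternative but one: leaving out 1 library gave 0 to 1, the 1 being Gm38699 (1.83 on the log2 scale) without MFN1-KD replicate 1. The fit on the 6 libraries of control and MFN1-KD tested 11 of the 69 genes only. The count at 1 FPKM or more in each MFN1-KD library, added after seeing the data, was 7, and 8 to 15 on leaving out a library (15 without MFN1-KD replicate 3). That count, too, can only stay or grow when a library is left out. The median MFN1-KD level stayed within 0.38 and 0.63 FPKM. Over all genes, 2627 were called higher in H3.3-KD (981 lower), 1486 with upper-quartile scaling (1884 lower), 1882 with median-ratio scaling (1512 lower), 1354 with a mean of at least 10 FPKM, which tests fewer genes, and 1719 to 2980 on leaving out 1 library (1719 without control replicate 3); the causes were not tested.

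Same-numbered libraries of different groups deviated with correlations from -0.053 to 0.158, and differently numbered ones from -0.116 to 0.072. The highest were control with MFN1-KD in replicate 2 (0.158) and H3.3-KD with MFN1-KD in replicate 3 (0.138). These values do not settle whether the numbers mark pairs, and the main fit did not take them as pairs. With the replicate number as a block, 2585 genes were called higher in H3.3-KD and 0 of the 69 were called in MFN1-KD. No fragment counts could be recovered, so how depth limits values under 1 FPKM is unknown.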
